A study of Mus musculus with 6 samples.

Results

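The transcripts of 9 mouse Toll-like receptors, Tlr1, Tlr2, Tlr3, Tlr4, Tlr6, Tlr7, Tlr8, Tlr9 and Tlr13, and of their co-receptor Cd14 were followed across 6 RNA-seq libraries. These 10 genes were taken by symbol out of 24054 in the deposited gene table, and each passed the filter on low counts that 12689 genes passed. The libraries came from cultured bone marrow-derived macrophages in 4 groups. These were C57BL/6-Kindlin3-integrin mutant cells given oxLDL (2 libraries), C57BL/6 wild-type cells given oxLDL (1), untreated mutant cells (2) and untreated wild-type cells (1). oxLDL, oxidised low-density lipoprotein, is the modified lipoprotein that macrophages take up in atherosclerotic lesions, and it was given at 50 µg/ml for 24 hours. All cells had been differentiated for 7 days in L929-conditioned medium. Kindlin-3, the product of Fermt3, activates integrins in blood cells. The labels do not say which allele the mutant mice carried, nor the age of the mice or whether a replicate was a separate animal, so p-values measure the spread between these libraries.

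Toll-like receptors are membrane proteins that recognise parts of microbes. Tlr1, Tlr2, Tlr4 and Tlr6 act mainly at the cell surface, where Tlr2 pairs with Tlr1 or Tlr6 to bind lipopeptides and Tlr4 binds lipopolysaccharide that Cd14 hands over. Tlr3, Tlr7, Tlr8, Tlr9 and Tlr13 act in endosomes, where they bind nucleic acids of different kinds. In mouse, Tlr13 recognises bacterial ribosomal RNA and Tlr9 recognises DNA with unmethylated CpG. After binding, all but Tlr3 recruit the adaptor Myd88, while Tlr3 and, from the endosome, Tlr4 use Ticam1, and both routes lead to NF-kB and interferon regulatory factors.

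Promoter sequence was available in the RefSeq table (build GRCm38.p6) for Tlr1, Tlr2, Tlr3, Tlr6, Tlr8, Tlr9 and Tlr13, 7 of the 10 genes. The 250 bases upstream of the annotated start are shown for the 4 genes whose window held the PU.1 core motif GAGGAA on either strand, because PU.1, encoded by Spi1, is a factor that macrophages need to develop. Each is written 5′ to 3′ in the direction of the gene, with motif matches in capitals.
Tlr1 (chr5:64933559-64933808, minus strand): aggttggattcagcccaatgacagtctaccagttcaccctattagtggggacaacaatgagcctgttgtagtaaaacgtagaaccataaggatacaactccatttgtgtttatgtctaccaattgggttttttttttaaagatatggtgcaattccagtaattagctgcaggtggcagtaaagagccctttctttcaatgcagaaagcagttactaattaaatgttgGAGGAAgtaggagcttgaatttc
Tlr9 (chr9:106222348-106222597, plus strand): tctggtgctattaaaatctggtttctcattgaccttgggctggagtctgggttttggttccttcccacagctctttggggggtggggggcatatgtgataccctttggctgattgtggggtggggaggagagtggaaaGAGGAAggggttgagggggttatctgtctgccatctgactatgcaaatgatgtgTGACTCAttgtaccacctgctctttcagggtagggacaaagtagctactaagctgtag
Tlr8 (chrX:167264330-167264579, minus strand): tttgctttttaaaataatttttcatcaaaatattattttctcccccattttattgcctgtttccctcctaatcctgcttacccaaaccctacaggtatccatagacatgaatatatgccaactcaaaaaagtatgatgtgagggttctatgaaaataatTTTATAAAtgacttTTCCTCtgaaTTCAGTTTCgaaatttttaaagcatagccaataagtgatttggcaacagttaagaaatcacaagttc
Tlr13 (chrX:106143025-106143274, plus strand): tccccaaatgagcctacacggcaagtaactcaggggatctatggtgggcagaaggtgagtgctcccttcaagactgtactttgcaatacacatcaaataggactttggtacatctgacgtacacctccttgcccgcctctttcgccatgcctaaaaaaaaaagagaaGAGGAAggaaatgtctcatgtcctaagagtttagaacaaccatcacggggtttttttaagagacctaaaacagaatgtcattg
Distances are counted from the base of each match that is farthest from the start. The GAGGAA match stood 23 bases upstream of the start in Tlr1, 112 in Tlr9, 77 in Tlr8 and 83 in Tlr13. It lay on the opposite strand in Tlr8. Of 32851 promoter windows of the same length, 23.3% held this motif. The Tlr9 window also held an AP-1 motif, TGANTCA, 58 bases upstream, found in 6.75% of windows. The Tlr8 window held an interferon-stimulated response element, GAAANNGAA, on the opposite strand 67 bases upstream (7.13% of windows). It also held a TATA box, TATAAA, read on both strands at overlapping positions 91 and 89 bases upstream (12.4% of windows). The NF-kB motif GGNNTTTCC, held by 4.93% of windows, was found in Tlr3 at 210 bases upstream and in none of the 4 sequences shown. Tlr1 and Tlr6 had a second annotated start each, and the one not shown for Tlr1 held none of these motifs. Tlr6 held GAAANNGAA at 115 and 109 bases upstream of one start and TATAAA at 180, 150 and 109 bases upstream of the other. All of these Tlr6 matches lay on the opposite strand. The Tlr2 window held none of the 5 motifs as spelled here. Other spellings of these sites, those of NF-kB among them, were not searched, so a window without a match may still hold such a site. These are matches of letters, not measured binding.

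Counts assigned to genes totalled 15807958 to 24273497 in the 3 oxLDL libraries and 11281659 to 21081679 in the 3 untreated ones. Levels are given as CPM (counts-per-million), which scales counts by each library's total and TMM factor. A floor of 3 counts, which covers counting error alone, stood at 0.122 to 0.263 CPM per library, far below the level of each of the 10 genes. Fermt3 had 146 and 153 CPM in the oxLDL-treated mutant pair and 188 CPM in oxLDL-treated wild type, and 239 and 248 CPM in the untreated mutant pair and 404 CPM in untreated wild type. Its transcript was present in every mutant library, and since the mutation is not described, it checks no label. Of 8 macrophage markers measured, Lyz2 was the highest, and none was at 0 in every library. Their summed level, which includes Cd14 itself, was 9745 to 19153 CPM with oxLDL and 18090 to 29138 CPM without. Markers of T and NK cells summed to at most 0.526 CPM and those of fibroblasts to at most 2.45 CPM. B cell markers summed to 25.2 to 42.7 CPM with oxLDL and 23.9 to 41.5 CPM without, mostly as Cd22 and Cd79b, with Pax5 at 0 in all libraries. One split of the libraries followed no group. The 15 pancreatic genes of a marker list summed to 193 and 154 CPM in the oxLDL-treated mutant pair and 259 CPM in untreated wild type, against 1.79 CPM in oxLDL-treated wild type and 3.15 and 3.45 CPM in the untreated mutant pair. Values without some of those libraries are given where results rest on them.

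With oxLDL, 7 of the 10 genes fell in the comparison of 3 oxLDL with 3 untreated libraries across both genotypes (edgeR quasi-likelihood test, adjusted p under 0.05 over all genes). These were Tlr1, Tlr2, Tlr3, Tlr7, Tlr8, Tlr9 and Cd14. None rose, and Tlr4, Tlr6 and Tlr13 did not pass. For the same 7 genes every oxLDL library lay below every untreated library. Over all 12689 genes, 21.4% fell by this test, 19.1% rose, and 22.8% had every oxLDL library below every untreated one. The median log2 fold change was -1.07 over the 10 genes and 0.01 over all genes tested. In bulk RNA, fewer cells that express a gene and less of its RNA per cell cannot be told apart. The plot of levels by library shows each gene on 1 common scale.

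**Figure D1:**
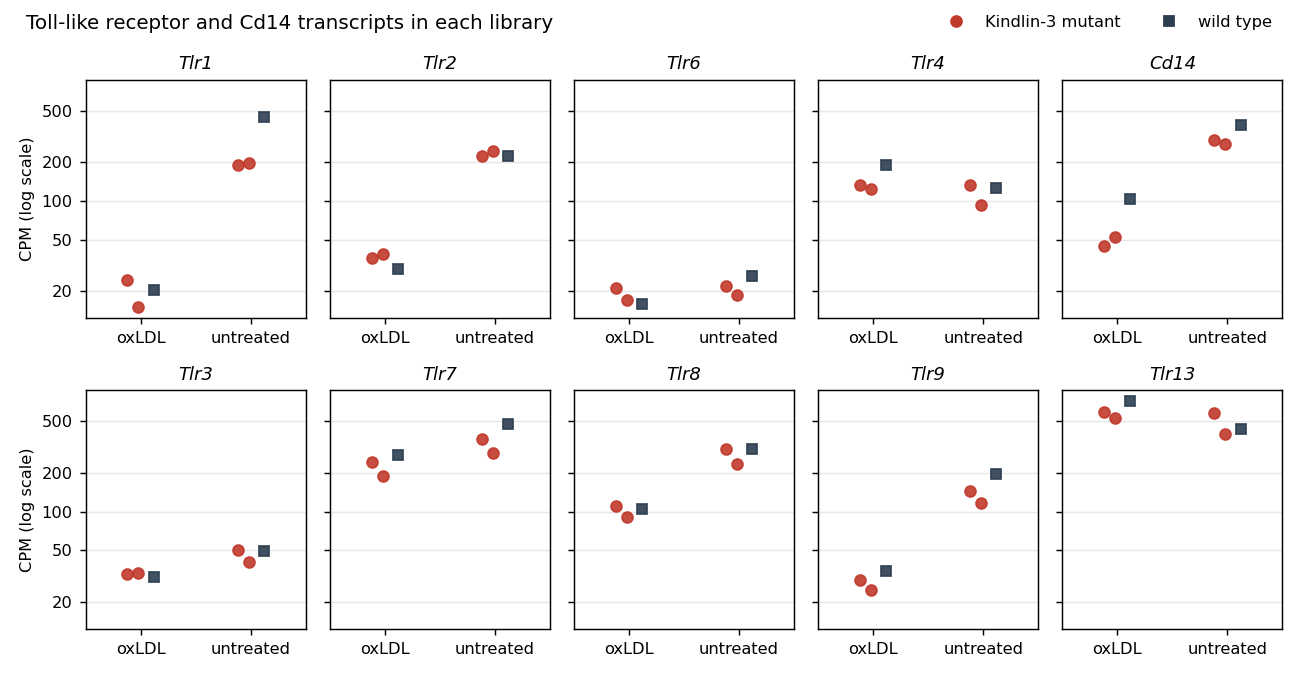
CPM (log scale) of each gene in each of the 6 libraries, with oxLDL left of untreated cells, circles for mutant and squares for wild type. Tlr1 sits between 14.9 and 24.5 CPM with oxLDL and between 189 and 450.1 CPM without, while Tlr13, at 398 to 717 CPM, overlaps between treatments.

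Of the receptors for lipopeptides, Tlr1, which partners Tlr2 for triacylated lipopeptides, had the largest change. Tlr1 had 24.5 and 14.9 CPM in the oxLDL-treated mutant pair and 20.2 CPM in oxLDL-treated wild type, against 189 and 195 CPM in the untreated mutant pair and 450.1 CPM in untreated wild type. The 3 oxLDL libraries lay close together and far below all untreated ones, among which wild type stood highest. Tlr1 averaged 19.9 ± 4.81 CPM with oxLDL and 278 ± 149 CPM without (SD, n = 3 each), and its log2 fold change was -3.68 ± 0.31 (SE; adjusted p = 0.000343), a 12.8-fold lower level. Of the 12689 genes tested, 209 had a lower log2 fold change.

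Tlr2, the shared partner of both lipopeptide receptors, had 36.0 and 38.8 CPM in the oxLDL-treated mutant pair and 29.6 CPM in oxLDL-treated wild type, against 222 and 241 CPM in the untreated mutant pair and 222 CPM in untreated wild type. Its levels were tight within each treatment and did not overlap, and the log2 fold change was -2.73 ± 0.10 (SE; adjusted p = 5.74e-05), or 6.64-fold lower with oxLDL. Tlr6, the other partner of Tlr2, for diacylated lipopeptides, had 21.0 and 17.0 CPM in the oxLDL-treated mutant pair and 15.9 CPM in oxLDL-treated wild type, against 21.9 and 18.7 CPM in the untreated mutant pair and 26.1 CPM in untreated wild type. The treatments overlapped, and its log2 fold change of -0.31 ± 0.17 (SE; adjusted p = 0.192) had an interval at 95% confidence of -0.71 to 0.10, without adjustment. With both mutant oxLDL libraries left out, which leaves 1 oxLDL library, the log2 fold change of Tlr6 was -0.70.

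Tlr1 and Tlr6 are neighbours on chromosome 5 and share sequence. Of the 75-base stretches of their annotated transcripts, 10.6% of those of Tlr1 occurred in other genes, Tlr6 among them, and 9.25% of those of Tlr6 occurred in Tlr1. The deposited counts of both genes hold fractions, such as 600.51 for Tlr1 and 515.5 for Tlr6 in mutant oxLDL replicate 1, so the split of shared reads is an estimate. With the counts of both genes added, the log2 fold change with oxLDL was -2.88 (adjusted p = 0.00066), an alternative chosen after seeing the data. Per kilobase of transcript, the ratio of Tlr6 to Tlr1 was 0.706 and 0.941 in the oxLDL-treated mutant pair and 0.648 in oxLDL-treated wild type, against 0.0953 and 0.0791 in the untreated mutant pair and 0.0476 in untreated wild type. Per kilobase, Tlr6 was below Tlr1 in every library, and nearer to it in each oxLDL library than in any untreated one. In CPM, Tlr6 was above Tlr1 in mutant oxLDL replicate 2, at 17.0 against 14.9.

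Of Tlr4 and Cd14, which act together in the recognition of lipopolysaccharide, Cd14 fell and Tlr4 did not pass. Cd14 had 44.8 and 52.2 CPM in the oxLDL-treated mutant pair and 103 CPM in oxLDL-treated wild type, against 294 and 278 CPM in the untreated mutant pair and 386 CPM in untreated wild type. Each oxLDL library was below each untreated one, and wild type was above mutant within each treatment. The log2 fold change of Cd14 with oxLDL was -2.35 ± 0.16 (SE; adjusted p = 0.000186), or 5.10-fold lower. Tlr4 had 132 and 123 CPM in the oxLDL-treated mutant pair and 191 CPM in oxLDL-treated wild type, against 133 and 92.6 CPM in the untreated mutant pair and 127 CPM in untreated wild type. The treatments overlapped, and the log2 fold change was 0.31 ± 0.16 (SE; adjusted p = 0.172; unadjusted 95% interval -0.07 to 0.69). Without untreated mutant replicate 1, the untreated library with the highest Tlr4 level, Tlr4 passed as higher with a log2 fold change of 0.51 (adjusted p = 0.0139). Per kilobase, Tlr4 over Cd14 was 1.19 and 0.945 in the oxLDL-treated mutant pair and 0.747 in oxLDL-treated wild type, against 0.182 and 0.134 in the untreated mutant pair and 0.132 in untreated wild type.

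Among the endosomal receptors, Tlr9 had the largest change. Tlr9 had 29.2 and 24.4 CPM in the oxLDL-treated mutant pair and 34.7 CPM in oxLDL-treated wild type, against 145 and 117 CPM in the untreated mutant pair and 195 CPM in untreated wild type. The groups did not overlap, with wild type above both mutant libraries in each treatment, and the log2 fold change with oxLDL was -2.37 ± 0.13 (SE; adjusted p = 0.000105), or 5.15-fold lower. Tlr8, a receptor of RNA fragments whose role in mouse is less settled than in human, had 111 and 91.0 CPM in the oxLDL-treated mutant pair and 105 CPM in oxLDL-treated wild type, against 307 and 234 CPM in the untreated mutant pair and 306 CPM in untreated wild type. All oxLDL libraries were below all untreated ones, with Tlr8 at 2.77-fold lower (log2 fold change -1.47 ± 0.14 SE, adjusted p = 0.000502).

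Tlr7, the receptor of single-stranded RNA, which lies beside Tlr8 on the X chromosome, had 244 and 189 CPM in the oxLDL-treated mutant pair and 274 CPM in oxLDL-treated wild type, against 369 and 285 CPM in the untreated mutant pair and 476 CPM in untreated wild type. The treatments were separated by a narrow gap, and the log2 fold change was -0.67 ± 0.14 (SE; adjusted p = 0.0116), or 1.59-fold lower. Tlr3, the receptor of double-stranded RNA, had 33.0 and 33.1 CPM in the oxLDL-treated mutant pair and 31.1 CPM in oxLDL-treated wild type, against 50.1 and 40.6 CPM in the untreated mutant pair and 49.6 CPM in untreated wild type. It fell by 0.54 ± 0.11 on the log2 scale (SE; adjusted p = 0.0101), or 1.45-fold. Of the stretches of Tlr3, 4.28% also occurred in the gene model Gm45542.

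Tlr13 had 596 and 529.8 CPM in the oxLDL-treated mutant pair and 717 CPM in oxLDL-treated wild type, against 580.0 and 398 CPM in the untreated mutant pair and 434 CPM in untreated wild type. Its treatments overlapped, and the log2 fold change was 0.37 ± 0.18 (SE; adjusted p = 0.158; unadjusted 95% interval -0.07 to 0.80). It passed as higher without untreated mutant replicate 1 (0.59, adjusted p = 0.0176). The ratio of Tlr13 to Tlr9 per kilobase was 17.5 and 18.6 in the oxLDL-treated mutant pair and 17.7 in oxLDL-treated wild type, against 3.43 and 2.91 in the untreated mutant pair and 1.91 in untreated wild type. In the oxLDL-treated wild-type library both Tlr13 and Tlr4 had their highest level of the 6 libraries.

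Tlr5, the receptor of flagellin, had 6 to 14 counts per library, Tlr11 at most 1 count, and Tlr12 had 0 counts in all 6 libraries. Tlr5 passed the filter on low counts, and its log2 fold change with oxLDL was -0.21 ± 0.66 (SE; adjusted p = 0.824).

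In mutant cells alone, 2 oxLDL against 2 untreated libraries, the same 7 genes fell, beside 19.1% of all genes tested. Their log2 fold changes ran from -3.29 for Tlr1 (adjusted p = 0.00051) to -0.47 for Tlr3 (adjusted p = 0.0365). Pancreatic genes summed to 193 and 154 CPM in the oxLDL libraries of this comparison and to 3.15 and 3.45 CPM in the untreated ones. Treatment with oxLDL and that feature cannot be told apart here. The call of Tlr3 ended without either mutant oxLDL replicate or without untreated mutant replicate 1 (adjusted p = 0.0714 to 0.16). The call of Tlr7, -0.61 (adjusted p = 0.0428), ended without mutant oxLDL replicate 2 (0.145) or untreated mutant replicate 1 (0.175). Tlr4 was not called (0.17, adjusted p = 0.498), but passed as higher without untreated mutant replicate 1 (0.46, adjusted p = 0.0433).

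In wild-type cells 1 oxLDL library stands against 1 untreated library, so the difference has no replicate check and is described by size. Here pancreatic genes summed to 1.79 CPM with oxLDL and 259 CPM without, so oxLDL and that feature cannot be told apart either. Tlr1 was 22.2-fold lower with oxLDL, Tlr2 7.47-fold, Tlr9 5.60-fold, Cd14 3.75-fold and Tlr8 2.91-fold. These 5 genes were at least 2-fold lower, as were 11.7% of the 9840 genes that reached 5 CPM in either library of the pair. The other log2 ratios were -0.80 for Tlr7, -0.71 for Tlr6, -0.67 for Tlr3, 0.59 for Tlr4 and 0.72 for Tlr13. The plot of changes with oxLDL sets these wild-type ratios beside the mutant ones.

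**Figure D2:**
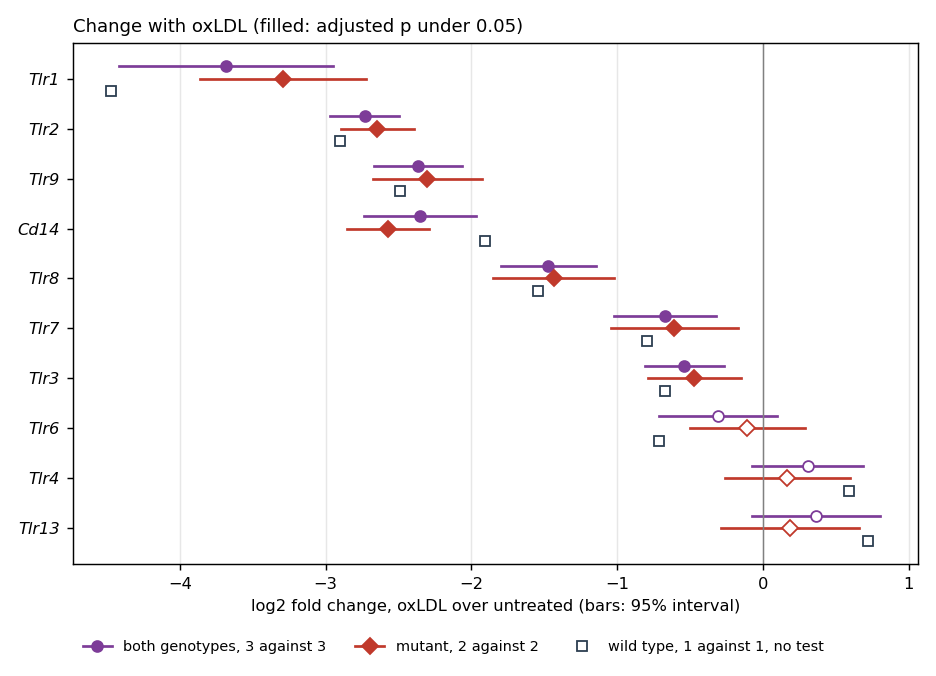
log2 fold change of each gene, oxLDL over untreated, with 95% intervals that are not adjusted, for both genotypes (circles), mutant cells (diamonds) and the single wild-type pair (squares, no test). Filled symbols passed at an adjusted p under 0.05, and Tlr1 is lowest in all 3 comparisons, at -3.68, -3.29 and -4.47.

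The falls were also computed with the libraries that held pancreatic transcripts left out in 1 genotype at a time. In each case the libraries on which the change then rests still differed in pancreatic transcripts by treatment. In wild type these transcripts were higher without oxLDL, and in the mutant they were higher with oxLDL. Neither computation alone can therefore tell oxLDL from that feature. Without both oxLDL-treated mutant libraries, an alternative chosen after seeing the data, the change rests on the wild-type pair, with the spread taken from the untreated mutant pair. There the log2 fold changes of the 7 genes that fell ran from -4.47 for Tlr1 to -0.66 for Tlr3. Tlr2 had -2.89 and Cd14 -1.90. Those of Tlr6, Tlr4 and Tlr13 were -0.70, 0.60 and 0.74. These are sizes only, since 1 oxLDL library is left. Without the untreated wild-type library, where the change rests on the mutant pairs, the same 7 passed, beside 4529 genes called in either direction over the whole table. The 3 libraries with little pancreatic RNA are oxLDL-treated wild type and the untreated mutant pair, which differ in genotype too. That the 7 genes were lower in the first follows from the lack of overlap between treatments given above. It is therefore no separate check. The narrowest gap was that of Tlr7, at 274 against 285 CPM. Plasmacytoid dendritic cells express Tlr7 and Tlr9, and their 6 listed markers summed to 107 to 144 CPM with oxLDL and 246 to 322 CPM without. Tcf4 and Bst2 made up nearly all of that sum, Ly6d was at 0, and Siglech, the defining marker, was at or below 0.211 CPM in every library. Of the macrophage markers, 4 fell with oxLDL (log2 fold changes -3.27 for Fcgr1, -2.45 for Emr1, -2.35 for Cd14 and -1.203 for Csf1r), Cd68 and Mertk rose (0.89 and 0.81), and Lyz2 did not pass (-0.55). Neutrophil markers summed to 6.31 to 12.4 CPM with oxLDL and 12.1 to 47.6 CPM without, and 2 of them, S100a9 and Ngp, fell (-6.74 and -6.27, adjusted p = 0.00198 and 0.000783), at no more than 0.211 CPM in any library but untreated wild type, which had 9.93 and 12.5 CPM. In the B cell list Cd79b fell (-2.88, adjusted p = 0.00143) and Cd22 rose (0.82, 0.0313). Xcr1 of the dendritic cell list fell (-1.48, 0.00828), and Kit of the mast cell list rose (3.83, 0.00217). Kit had 70.0 and 24.2 CPM in the oxLDL-treated mutant pair and 6.60 CPM in oxLDL-treated wild type. Untreated, it had 4.91 and 2.60 CPM in the mutant pair and 0.205 CPM in wild type. The other mast cell genes listed were at or below 0.0815 CPM in every library, and the other dendritic cell genes at or below 0.438 CPM. The part of any of these cells in the receptor levels was not tested.

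Levels can be compared roughly between genes per kilobase of transcript, as CPM per kb. Here and in the ratios above, the length was that of the gene's longest main transcript in a mouse reference. That length need not be the one used in counting, and the order, shares and ratios rest on it. With oxLDL the order was Tlr13 (151 ± 23.4), Tlr7 (60.5 ± 11.1), Cd14 (40.6 ± 19.2), Tlr4 (36.4 ± 9.05), Tlr8 (29.8 ± 3.00), Tlr2 (11.6 ± 1.56), Tlr9 (8.46 ± 1.48), Tlr3 (7.35 ± 0.264), Tlr1 (6.56 ± 1.59) and Tlr6 (4.89 ± 0.735; SD, n = 3 libraries each). Of neighbours in that order, Tlr13 and Tlr7, and Tlr8 and Tlr2, did not overlap between libraries, and the other neighbours did. In untreated cells the order was Cd14 (194 ± 35.5), Tlr13 (116 ± 23.7), Tlr7 (96.6 ± 24.5), Tlr1 (91.9 ± 49.3), Tlr8 (82.3 ± 12.3), Tlr2 (75.8 ± 3.70), Tlr9 (43.8 ± 11.3), Tlr4 (28.8 ± 5.30), Tlr3 (10.6 ± 1.21) and Tlr6 (6.05 ± 1.0001; SD, n = 3 each). There Tlr13, Tlr7, Tlr1 and Tlr8 each overlapped the next in order, and the other neighbours did not. The place of Tlr1 in untreated cells averages unlike libraries, at 62.5 and 64.4 CPM per kb in the mutant pair and 149 CPM per kb in wild type.

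The summed level of the 9 receptors per kilobase was 316, 273 and 362 in the oxLDL libraries, in the order mutant 1, mutant 2 and wild type, and 555, 455 and 646 in the untreated ones. Tlr13 made up 46.5%, 47.9% and 48.8% of that sum with oxLDL, against 25.7%, 21.6% and 16.5% without. Tlr1 made up 2.56%, 1.81% and 1.84% with oxLDL, against 11.3%, 14.2% and 23.0% without. The 5 endosomal receptors together held 81.2% ± 0.439 of the sum with oxLDL and 63.4% ± 4.57 without (SD, n = 3 each), and Tlr7 alone 19.0% ± 1.082 and 17.3% ± 1.42. These shares of a sum are descriptions with no test.

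**Figure D3:**
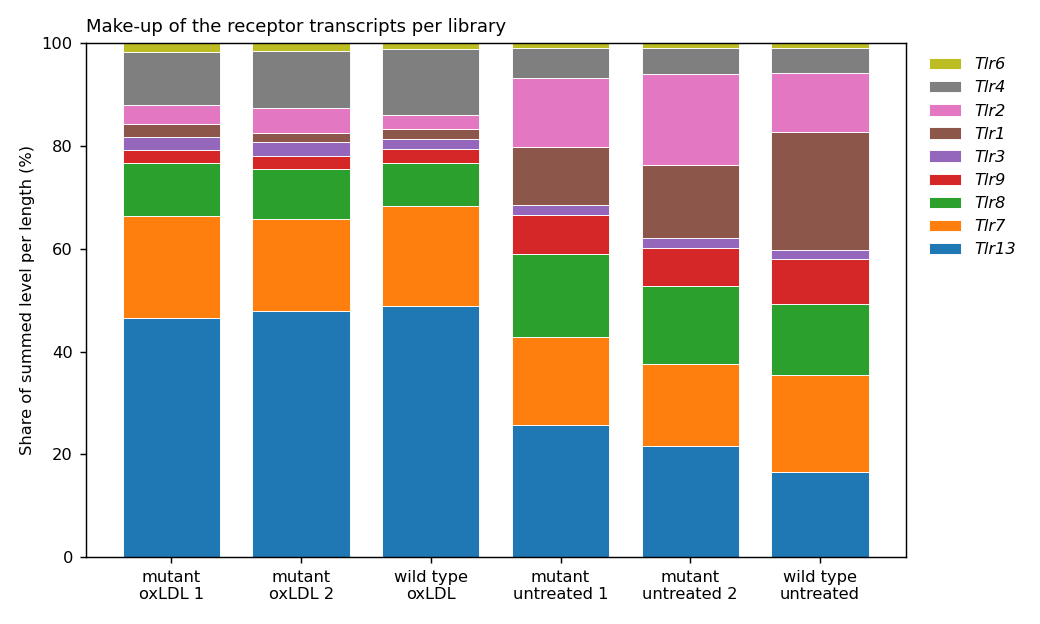
Share (%) of each receptor in the summed level per kilobase of the 9 receptors, 1 stacked bar per library, with the 3 oxLDL libraries on the left. Tlr13, the lowest block, fills 46.5% to 48.8% with oxLDL and 16.5% to 25.7% without, while the Tlr1 and Tlr2 blocks are narrow in the oxLDL bars.

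Between genotypes across both treatments, 4 mutant against 2 wild-type libraries, none of the 10 genes passed in the edgeR test, beside 4.05% of all genes tested. DESeq2 called 2 of the 10, Cd14 and Tlr9, while over all 12689 genes it called 856 higher and 644 lower. The nearest to passing was Cd14, lower in the mutant (log2 fold change -0.76 ± 0.16 SE, adjusted p = 0.0524). Tlr9 followed with -0.47 ± 0.13 (adjusted p = 0.0892), Tlr7 with -0.44 ± 0.15 (0.146) and Tlr1 with -0.70 ± 0.29 (0.204). With 1 library left out, Tlr1 ran from -1.22 (adjusted p = 0.0449) without oxLDL-treated wild type to -0.03 without untreated wild type. Cd14 ran from -1.082 (adjusted p = 0.0414) without untreated wild type to -0.43 without oxLDL-treated wild type. For Tlr7, Tlr9 and Cd14, 3 of the 10 genes, both mutant libraries lay below the wild-type one in both treatments. Over all genes tested this held for 22.5%.

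In untreated cells, 2 mutant against 1 wild-type library, 1 of the 10 genes was called, beside 2.82% of all genes called lower. Tlr1, at 189 and 195 CPM in the mutant pair against 450.1 CPM in wild type, was 2.33-fold lower (log2 fold change -1.22 ± 0.25 SE, adjusted p = 0.0444). That call ended without untreated mutant replicate 1 (adjusted p = 0.138) or replicate 2 (0.119). The untreated wild-type library is also the 1 untreated library with pancreatic transcripts, and its neutrophil markers summed to 47.6 CPM, against 13.8 and 12.1 CPM in the untreated mutant pair, so genotype and these features cannot be told apart there. Among oxLDL libraries 1 of the 10 genes was called, beside 0.181% of all genes called lower. Cd14, at 44.8 and 52.2 CPM in the mutant pair against 103 CPM in wild type, was 2.12-fold lower (log2 fold change -1.09 ± 0.13 SE, adjusted p = 0.0444). The call of Cd14 too was lost without untreated mutant replicate 1 or replicate 2, while its log2 fold change stayed at -1.08 in both cases. These untreated libraries are not compared here and serve the test mainly through the shared estimate of the spread. Both mutant oxLDL libraries hold pancreatic transcripts while the wild-type one holds little. Between genotypes with oxLDL, Tlr1 had a log2 fold change of -0.03 ± 0.28 (adjusted p = 0.973), with an unadjusted 95% interval of -0.72 to 0.66.

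**Figure D4:**
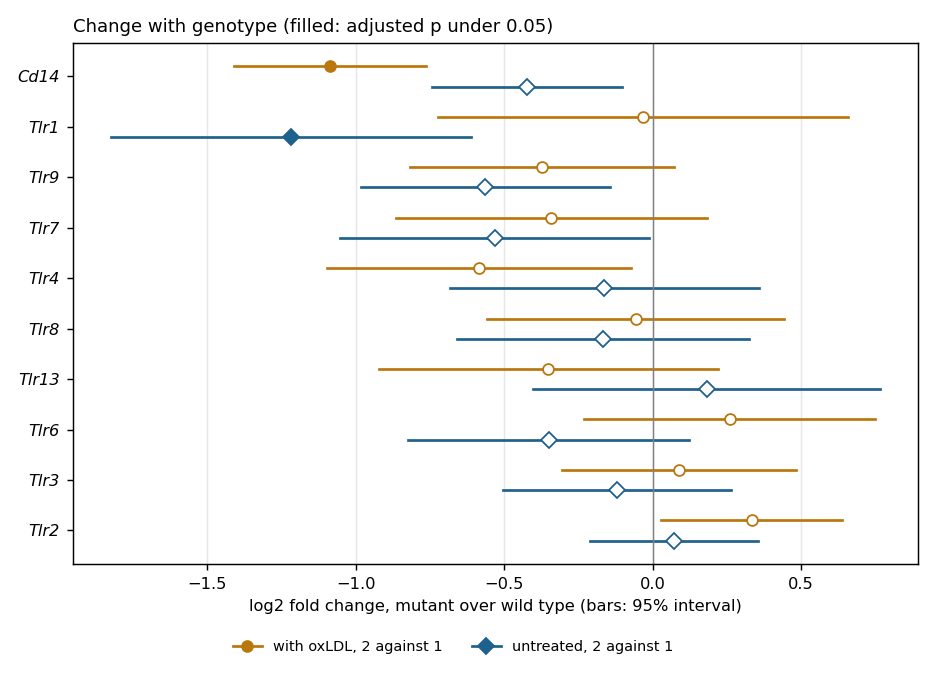
log2 fold change of each gene, mutant over wild type, with unadjusted 95% intervals, among oxLDL libraries (circles) and among untreated ones (diamonds). Filled symbols passed at an adjusted p under 0.05, which are Cd14 with oxLDL at -1.09 and Tlr1 in untreated cells at -1.22.

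The interaction tests whether the change with oxLDL differed between mutant and wild type. In the edgeR test 0 of the 10 genes passed, beside 0.489% of all genes. DESeq2 also called 0. The 2 of the 10 genes with the smallest p in the edgeR test were Tlr1 and Cd14. The change of Tlr1 was less negative in the mutant by 1.19 on the log2 scale (unadjusted 95% interval 0.25 to 2.12, adjusted p = 0.354). The change of Cd14 was more negative in the mutant (-0.66, interval -1.13 to -0.20, adjusted p = 0.295). Tlr1 passed without mutant oxLDL replicate 2 (1.49, adjusted p = 0.0387). The calls of Tlr1 and Cd14 between genotypes are thus not shown to differ between treatments. The 3 libraries with pancreatic transcripts stand on 1 side of this contrast, so the interaction and that feature cannot be told apart. Among 88 other pathway genes tested, 3 passed, Fos, Cebpb and Dusp1.

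The other genes of the pathway, 91 listed genes found in the table of which 88 were tested, gave 15 that rose and 39 that fell with oxLDL across genotypes, while 34 did not pass. Over all genes 19.1% rose and 21.4% fell. The median log2 fold change of the 88 was -0.22, against 0.01 over all genes. The 4 genes with the smallest p in each list are named, and beside them Ly96, Ticam1 and Spi1, chosen after their values were seen. The plot of the pathway shows the tested genes of the 6 lists beside the receptors.

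Of 10 partners at the cell surface, 1 rose, 4 fell and 5 did not pass. Ly86 (MD-1) and Cd180, which form a receptor-like complex that modulates responses to lipopolysaccharide, fell together. Ly86 had 19.0 and 22.1 CPM in the oxLDL-treated mutant pair and 11.1 CPM in oxLDL-treated wild type, against 86.6 and 86.0 CPM in the untreated mutant pair and 58.1 CPM in untreated wild type (log2 fold change -2.18 ± 0.11, SE; adjusted p = 0.000102). Cd180 fell by 1.13 ± 0.14 on the log2 scale (adjusted p = 0.0015) and Itgb2, the shared beta chain of the leukocyte integrins, by 0.35 ± 0.10 (adjusted p = 0.0295). Itgb2 lost its call when any library but untreated mutant replicate 1 was left out (adjusted p = 0.0751 to 0.111). Itgam, the CD11b chain, had a log2 fold change of -2.03 ± 0.26 (adjusted p = 0.00162), but 65.2% of its stretches are shared with another gene model, so its count is uncertain. Ly96 (MD-2), which binds lipopolysaccharide with Tlr4, did not pass across genotypes (0.14 ± 0.22, adjusted p = 0.666). It had 19.4 and 19.1 CPM in the oxLDL-treated mutant pair and 19.3 CPM in oxLDL-treated wild type, against 13.3 and 13.5 CPM in the untreated mutant pair and 28.6 CPM in untreated wild type. In the mutant alone Ly96 rose (0.50, adjusted p = 0.0229), and its interaction of 1.075 (log2) did not pass (adjusted p = 0.159). Pancreatic transcripts followed treatment among the mutant libraries, so oxLDL and that feature cannot be told apart for this rise.

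Of 20 genes for folding, transport and endosomal processing, 4 rose, 5 fell and 11 did not pass. Unc93b1, the chaperone that carries nucleic acid receptors to endosomes, had 196 and 253 CPM in the oxLDL-treated mutant pair and 262 CPM in oxLDL-treated wild type, against 504 and 547 CPM in the untreated mutant pair and 937 CPM in untreated wild type, 2.71-fold lower (adjusted p = 0.00115). Lgmn, a protease that cleaves endosomal receptors, fell 2.27-fold (adjusted p = 0.000617). The nucleases Pld3 and Pld4, which degrade ligands of Tlr9, moved in opposite directions. Pld3 had 701 and 766 CPM in the oxLDL-treated mutant pair and 579 CPM in oxLDL-treated wild type, against 331 and 253 CPM in the untreated mutant pair and 195 CPM in untreated wild type, 2.64-fold higher (adjusted p = 0.000573). Pld4 fell 2.15-fold (adjusted p = 0.00116).

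Of 6 TIR adaptors, 4 fell, 0 rose and 2 did not pass, with a median log2 fold change of -1.14. Myd88 had 31.8 and 29.7 CPM in the oxLDL-treated mutant pair and 37.4 CPM in oxLDL-treated wild type, against 89.2 and 96.9 CPM in the untreated mutant pair and 138 CPM in untreated wild type. All 3 oxLDL libraries were below all untreated ones, 3.26-fold on average (adjusted p = 0.000121). Pik3ap1 (BCAP), which links the receptors to PI3 kinase, fell 3.96-fold (adjusted p = 0.000182). Ticam2 (TRAM), the bridge from Tlr4 to Ticam1, fell 2.21-fold (adjusted p = 0.00522), with 13.6% of its stretches shared with other genes. Tirap, the bridge from Tlr2 and Tlr4 to Myd88, fell 1.69-fold (adjusted p = 0.0203), and its call ended without mutant oxLDL replicate 1 (0.0543) or untreated mutant replicate 2 (0.0734). Ticam1 itself did not pass (log2 fold change -0.22 ± 0.13, adjusted p = 0.218).

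Of 22 kinases and ubiquitin ligases, 6 rose, 8 fell and 8 did not pass, with a median log2 fold change of -0.03. Ikbke, a kinase of interferon regulatory factors, fell 5.85-fold (adjusted p = 0.000258), Birc3 (cIAP2), a ubiquitin ligase, 3.50-fold (0.00109) and Map3k8, which starts the ERK branch, 3.33-fold (0.000414). Ikbkg, the regulatory subunit of the IkB kinase complex, rose 2.04-fold (0.000777).

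Of 14 transcription factors, 1 rose, 9 fell and 4 did not pass, with a median log2 fold change of -1.01. Irf7, which drives type I interferon genes downstream of Tlr7 and Tlr9, had 10.8 and 8.19 CPM in the oxLDL-treated mutant pair and 26.3 CPM in oxLDL-treated wild type, against 167 and 143 CPM in the untreated mutant pair and 388 CPM in untreated wild type. It was 15.8-fold lower with oxLDL (adjusted p = 5.58e-05). Of the NF-kB subunits, Nfkb2 fell 3.48-fold (0.000118), Relb 2.90-fold (0.00033) and Nfkb1 1.998-fold (0.000326), where 13.6% of the stretches of Nfkb2 are shared. Spi1, the gene of PU.1, fell 2.04-fold (adjusted p = 0.00151) and is named here after its values were seen. Its part in the receptor levels was not tested.

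Of 15 genes in the list of inhibitors, 3 rose, 9 fell and 3 did not pass, with a median log2 fold change of -0.69. The list does not tell whether a gene, such as Nfkbiz, only inhibits, and inhibition was not measured. Nfkbiz, a nuclear IkB protein, had 8.40 and 8.14 CPM in the oxLDL-treated mutant pair and 8.64 CPM in oxLDL-treated wild type, against 272 and 411 CPM in the untreated mutant pair and 624 CPM in untreated wild type, 49.8-fold lower (adjusted p = 7.62e-05). Nfkbia, the IkB alpha that NF-kB itself induces, fell 5.72-fold (0.000127) and Irak3 (IRAK-M), which blocks receptor signalling, 5.61-fold (0.00016). Tollip, an adaptor that dampens Tlr2 and Tlr4 signalling, rose 1.78-fold (0.000437).

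**Figure D5:**
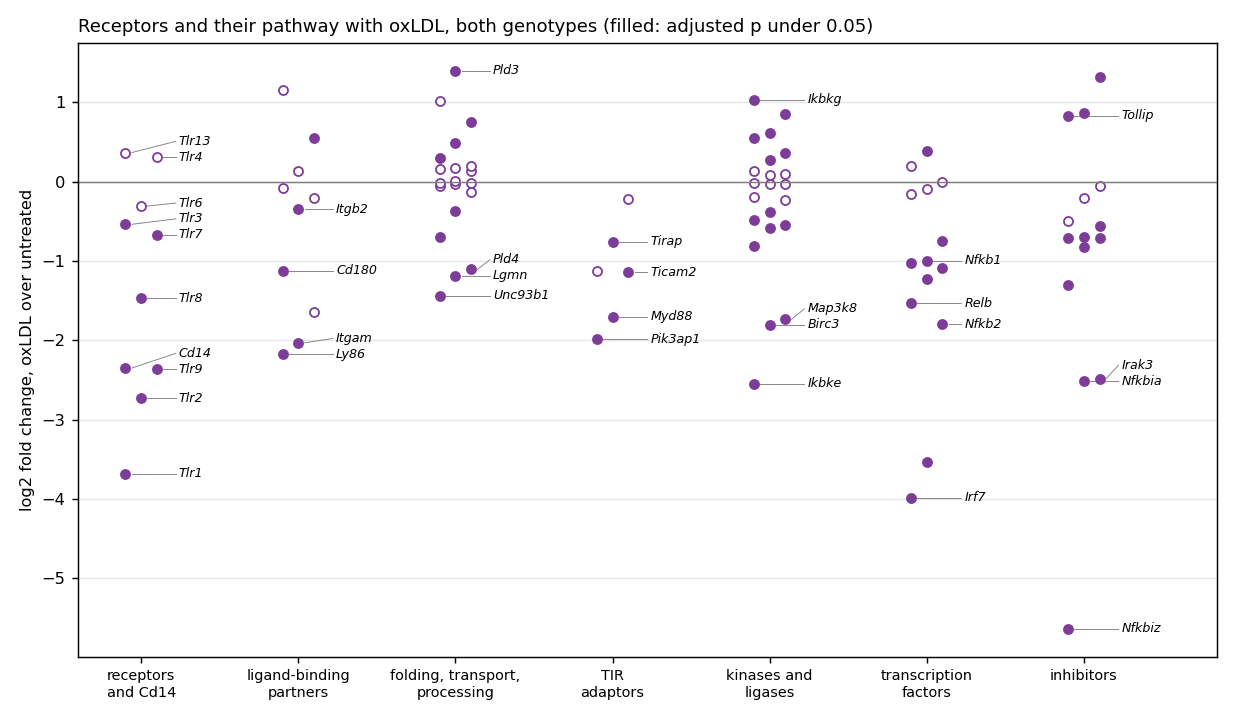
log2 fold change with oxLDL over untreated, both genotypes, of the 9 receptors with Cd14 and of the 6 pathway lists, 1 circle per tested gene, filled where the adjusted p was under 0.05. The named extremes are Nfkbiz at -5.64 and Pld3 at 1.40, and Tlr1 at -3.68 is the lowest of the receptors.

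Between genotypes across treatments, 1 of the 88 pathway genes was higher in the mutant and 6 were lower, beside the 4.05% of all genes called in either direction. Ly86 was higher (log2 fold change 0.72, adjusted p = 0.037). Irf7 had the largest difference, at 10.8 and 8.19 CPM in the mutant pair against 26.3 CPM in wild type with oxLDL, and at 167 and 143 CPM against 388 CPM without (-1.38, adjusted p = 0.0122). The others were Irf5 (-0.78, adjusted p = 0.048; 9.24% of its stretches shared), Slc15a3 (-0.77, 0.0328), Lgmn (-0.75, 0.0341), Pik3ap1 (-0.72, 0.0447) and Irak4 (-0.63, 0.04). Of the other genes among the 2 with the smallest p in their list, Itgb2 (-0.46, adjusted p = 0.0616), Myd88 (-0.43, 0.0685), Tbk1 (-0.33, 0.0703), Irak3 (-0.47, 0.141) and Tollip (0.21, 0.167) did not pass. Slc15a3 is an endosomal transporter, with 26.1% of its stretches shared with another gene. Irf5 drives inflammatory cytokine genes, and Irak4 is the first kinase after Myd88. None of the 7 calls held with each library left out in turn. Irf7 was the steadiest, lost without untreated mutant replicate 2 (0.0863) or untreated wild type (0.0505), and each of the others was lost without either untreated mutant library, among others.

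The genes whose levels followed Tlr1 most closely over the 6 libraries, by Pearson correlation of log2 CPM, were Slc25a10 (r = 0.999), Avpr2 (0.998) and Dennd6a (0.997). Slc25a10, a mitochondrial dicarboxylate carrier, had 24.98 and 18.1 CPM in the oxLDL-treated mutant pair and 21.1 CPM in oxLDL-treated wild type, against 82.3 and 87.0 CPM in the untreated mutant pair and 128 CPM in untreated wild type, and Avpr2 was at or below 5.99 CPM throughout. Those nearest to Tlr2 were Btbd11 (r = 0.997), Necap1 (0.997) and Lsm3 (0.996). Such values come from 6 points in 2 treatments and from the best of 12688 genes, so they describe likeness in these libraries and nothing more.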

How the data were processed

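Polyadenylated RNA of 6 macrophage cultures was sequenced as 150-base paired ends from 250 ng RNA with a stranded kit, per the labels' protocols. The submitters' processing notes list Bowtie2 2.1.0 for alignment and RSEM 1.2.15 for counting. A human build stands in the same notes although the gene symbols are mouse, so neither the build nor the strand setting is given in the sources used here. The authors deposited expected counts per gene, which can split reads between similar genes such as Tlr1 and Tlr6. The authors also deposited a TMM-scaled signal per gene made with edgeR, and whole reads recovered from this signal matched the rounded counts in 99.89% or more of the genes of each library. CPM of the 10 genes computed here differed from the deposited signal by at most 0.0259%.

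Expected counts were rounded, and 12689 of 17143 genes with any count passed filterByExpr. They were tested with edgeR 4.0.16 (R 4.3.3) by the quasi-likelihood F-test with TMM factors and Benjamini-Hochberg adjustment over all genes, at an adjusted p under 0.05. The comparisons across genotypes and across treatments came from an additive model with genotype and treatment (3 residual degrees of freedom). A model of 4 group means gave the others (2 residual degrees of freedom), where the spread of the lone wild-type libraries is taken to equal that of the mutant pairs. SE is the size of the log2 change over the root of F, and 95% intervals are not adjusted. The wild-type pair was described by size with a prior count of 2 and a minimum of 5 CPM. DESeq2 1.42.0, other size factors, no filter, a replicate term and leaving out libraries were alternatives. The steps were run on simulated counts with a single spread for all genes and a single effect at a time. That setting does not copy the spread between these libraries. Per list, the 4 genes with the smallest p with oxLDL and the 2 with the smallest p between genotypes are named. Shared sequence is the percentage of 75-base windows of a gene's mouse reference transcripts that also occur in another gene, on either strand. These windows are shorter than the reads, and the reference need not be the annotation behind the counts. The genes and lists were chosen with earlier results of these data known. Some genes of the marker lists are not reported here.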

Additional observations from a re-analysis of the deposited data

Results flagged for a closer look

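Of the 88 pathway genes tested, 3 passed, and of the 10 receptor and Cd14 genes 0 passed, the edgeR test of a difference between mutant and wild type in the change with oxLDL (interaction). Fos, a subunit of AP-1, had 9.54 and 9.63 CPM in the oxLDL-treated mutant pair and 16.3 CPM in oxLDL-treated wild type, against 166 and 200.4 CPM in the untreated mutant pair and 64.5 CPM in untreated wild type. It fell more in the mutant, with an interaction of -2.28 on the log2 scale (adjusted p = 0.0207). Dusp1, a phosphatase that switches off MAP kinases, had 13.4 and 14.7 CPM in the oxLDL-treated mutant pair and 33.2 CPM in oxLDL-treated wild type, against 32.2 and 32.0 CPM in the untreated mutant pair and 16.7 CPM in untreated wild type. Its level was lower with oxLDL in the mutant and higher in wild type (interaction -2.19, adjusted p = 0.0183). Cebpb, a transcription factor of inflammatory genes, had 17.4 and 18.4 CPM in the oxLDL-treated mutant pair and 34.1 CPM in oxLDL-treated wild type, against 31.0 and 27.9 CPM in the untreated mutant pair and 16.7 CPM in untreated wild type. It too had opposite directions (interaction -1.76, adjusted p = 0.0391), and 16.7% of its stretches are shared with another gene.

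The calls of Dusp1 and Cebpb ended without untreated mutant replicate 1 (adjusted p = 0.109 and 0.164) or replicate 2 (0.089 and 0.124). The call of Fos held with any of the replicated libraries left out. Each wild-type arm is 1 library, and the pancreatic transcripts split the libraries along the same contrast. The 3 genes are named after their values were seen.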

How the results depend on the processing

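The 7 falls with oxLDL across genotypes held in each of the 12 alternatives, with 7 to 9 called when 1 library was left out. The extra calls were Tlr4 and Tlr13, both higher, without untreated mutant replicate 1. In the mutant alone 5 to 7 were called with a library left out and 6 by DESeq2, which lost Tlr3. In wild type, 5 genes stayed past 2-fold under other scalings or prior counts. Pathway calls with oxLDL numbered 45 to 52 with a library left out, against 54. Of 348 values of 29 named pathway genes, 340 kept their direction and side of the threshold. Receptor and Cd14 genes called between genotypes across treatments numbered 0, against 2 without a filter, 2 by DESeq2, 1 by the average of the group contrasts and 0 to 1 with a library left out. In untreated cells they numbered 1, against 4 without a filter and 0 to 1 with a library left out, and with oxLDL 1, against 2 without a filter and 0 to 1. The interaction called 0, against 1 without a filter and 0 to 1 with a library left out. The cause was not tested.

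The labels do not say whether mutant libraries with the same replicate number came from the same animal or culture, so pairing is unknown. Across 12689 genes the deviations of replicate 1 had a correlation of 0.20 between oxLDL-treated and untreated mutant cells. With only 2 such pairs, that value does not settle whether they were paired. A replicate block left 7 of the receptor and Cd14 genes called with oxLDL, across genotypes and in the mutant. Between genotypes across treatments the block turned Tlr3 to 0.052, Tlr6 to 0.071, Tlr8 to 0.046 and Tlr13 to 0.080. With oxLDL it turned Tlr1 to 0.091 and Tlr8 to 0.11, and adding the counts of Tlr1 and Tlr6 gave 0.10 for Tlr1. None of these was called. The block also ended 6 of the 7 genotype calls of pathway genes (adjusted p = 0.0678 to 0.0989).

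With a library left out, uncalled log2 fold changes changed sign as follows. Between genotypes across treatments Tlr3 ran from -0.12 to 0.093, Tlr6 from -0.35 to 0.27 and Tlr13 from -0.35 to 0.18. In untreated cells Tlr3 ran from -0.29 to 0.022, Tlr4 from -0.46 to 0.072, Tlr8 from -0.40 to 0.014 and Tlr13 from -0.13 to 0.42. With oxLDL Tlr1 ran from -0.44 to 0.28 and Tlr8 from -0.21 to 0.085. With oxLDL in the mutant Tlr4 ran from -0.068 to 0.46, Tlr6 from -0.26 to 0.042 and Tlr13 from -0.054 to 0.50. In the interaction Tlr7 ran from -0.0077 to 0.41 and Tlr8 from -0.064 to 0.34.

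Over all genes, higher and lower calls between genotypes across treatments were 322 and 192, against 874 and 513 without a filter and 856 and 644 by DESeq2. In untreated cells they were 538 and 358, against 1339 and 1096 without a filter and 1083 and 787 with the block. With oxLDL they were 38 and 23, against 622 and 352, 230 and 160 by DESeq2, and 299 and 163 with the block. For the interaction they were 24 and 38, against 197 and 349, 62 and 159, and 45 and 117. With a library left out, the genotype calls across treatments ran from 8 to 877. Tlr6, with as few as 248 counts, had the fewest counts of the 9 receptors followed.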
